A study of Mus musculus with 6 samples.

Results

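The Hoxa genes form 1 of the 4 mammalian clusters of homeobox transcription factor genes. Described here are Hoxa2, Hoxa3, Hoxa4, Hoxa5, Hoxa6, Hoxa7, Hoxa9, Hoxa10 and Hoxa11, chosen by symbol from a table of raw gene counts. All 9 were present among its 24062 rows, and 8 of them were among the 15742 genes that passed a filter on low counts. Hoxa11 did not pass.

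The libraries are messenger RNA of bone marrow cells sorted for Kit, a receptor that stem and early progenitor cells carry; the series description also calls them lineage-negative. There were 3 wild-type (WT) and 3 Ints11 knockout (KO) C57BL/6 mice, with 1 mouse per library. Ints11 encodes the endonuclease of Integrator, a complex that cleaves nascent RNA at small nuclear RNA genes and close to promoters. KO mice were Mx1Cre+ with floxed Ints11 alleles, and WT mice were their littermates. Cells were sorted 4 days after injection of poly(I:C), an interferon inducer that switches on Mx1-Cre, and this time is given for all 6 libraries. Mx1-Cre acts in many interferon-responsive cells and not in blood cells alone. The sources used here do not say whether the WT littermates carried Cre, nor how old the mice were. Libraries are named by genotype and mouse number, and the comparison asks how each transcript differs between the genotypes.

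Hox proteins bind short AT-rich DNA sites, and most of them do so together with cofactors of the TALE class, the PBX and MEIS proteins. The genes of a cluster lie in the order of their expression domains along the embryo, and MLL (Kmt2a) and Polycomb complexes keep them on or off. In blood, Hoxa genes are active in stem and early progenitor cells and are shut down as cells mature. Hoxa9 is the member best known there, and its overexpression together with Meis1 causes myeloid leukaemia in mice.

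The 9 genes lie on the reverse strand of chromosome 6 between positions 52162417 and 52245810 (83394 bp, GENCODE M21 on GRCm38, the assembly that mm10 names). Hoxa2 is at the lower end and Hoxa11 at the upper end. The rise described below concerned Hoxa5 (52201754 to 52204587), Hoxa6 (52206288 to 52208722) and Hoxa10 (52231197 to 52240854), and Hoxa9 (52223100 to 52231089) lies between them. The 250 bases before the annotated starts of these 4 genes are shown because the first 3 rose and Hoxa9 was not called; RefSeq (GRCm38.p6) gives 2 starts for Hoxa10, and gene counts do not separate them. Sequences run 5′ to 3′ on the gene's strand, and capitals mark matches, on either strand, to 6 motifs: CCAAT, the GC box GGGCGG, the TATA box TATAAA, the homeodomain core TAATTA, the posterior HOX and CDX core TTTATG and the MEIS core TGACAG.
Hoxa5, chr6:52204588-52204837, reverse strand: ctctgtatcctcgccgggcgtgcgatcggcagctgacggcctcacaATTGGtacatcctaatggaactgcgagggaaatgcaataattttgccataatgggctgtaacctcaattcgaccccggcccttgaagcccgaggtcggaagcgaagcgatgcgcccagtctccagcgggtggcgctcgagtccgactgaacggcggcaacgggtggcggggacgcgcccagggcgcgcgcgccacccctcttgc
Hoxa6, chr6:52208673-52208922, reverse strand: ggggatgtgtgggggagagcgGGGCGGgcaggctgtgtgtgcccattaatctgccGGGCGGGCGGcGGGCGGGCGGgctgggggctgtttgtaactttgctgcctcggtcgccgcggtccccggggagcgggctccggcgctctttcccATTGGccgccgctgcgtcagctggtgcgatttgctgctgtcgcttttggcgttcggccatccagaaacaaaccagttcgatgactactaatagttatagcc
Hoxa10, inner start, chr6:52234940-52235189, reverse strand: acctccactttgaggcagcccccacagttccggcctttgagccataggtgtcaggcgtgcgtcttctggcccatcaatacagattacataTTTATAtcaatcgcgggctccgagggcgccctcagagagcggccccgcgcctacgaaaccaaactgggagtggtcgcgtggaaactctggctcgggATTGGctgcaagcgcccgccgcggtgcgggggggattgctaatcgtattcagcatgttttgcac
Hoxa10, outer start, chr6:52240855-52241104, reverse strand: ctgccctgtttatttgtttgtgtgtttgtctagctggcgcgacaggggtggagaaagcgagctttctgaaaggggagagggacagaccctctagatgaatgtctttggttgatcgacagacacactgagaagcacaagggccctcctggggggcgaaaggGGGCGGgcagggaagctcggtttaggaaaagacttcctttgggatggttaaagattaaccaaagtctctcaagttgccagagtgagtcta
Hoxa9, chr6:52227371-52227620, reverse strand: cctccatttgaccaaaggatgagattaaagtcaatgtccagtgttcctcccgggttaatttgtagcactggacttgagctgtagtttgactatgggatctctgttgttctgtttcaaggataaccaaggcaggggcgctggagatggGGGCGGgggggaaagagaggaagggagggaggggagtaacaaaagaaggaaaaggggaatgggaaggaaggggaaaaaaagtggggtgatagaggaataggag

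The windows of Hoxa5 and Hoxa6 were rich in CG dinucleotides, with 28 and 24, against 3 in that of Hoxa9 and a median of 6 over 32851 RefSeq windows of the same length. The inner start of Hoxa10 had 20 and its outer start 7. Among members whose windows are not shown, Hoxa3 had 18, Hoxa11 13, Hoxa7 7 and Hoxa2 6, and none of these was called higher. For Hoxa4 there was no window. The bases just after the starts used for Hoxa3 and Hoxa7 did not match a GENCODE transcript of the gene. The Hoxa6 window held 5 GC boxes, some of which overlap one another, and the outer Hoxa10 window and the Hoxa9 window held 1 each; 32.7% of all windows have at least 1. CCAAT occurred once in the windows of Hoxa5, Hoxa6 and the inner Hoxa10 start (33.8% of all windows), and TATAAA once at the inner Hoxa10 start (12.4%). None of the 5 windows shown held TAATTA (4.84% of all windows), TTTATG (10.8%) or TGACAG (15.9%). Among the windows not shown, those of Hoxa2 and Hoxa3 held 1 TGACAG each, that of Hoxa7 2 TTTATG and that of Hoxa2 4 CCAAT. These are letter matches only.

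Counts per library totalled between 124074531 and 166860739. Ints11, listed under its older symbol Cpsf3l, was at 81.7 ± 9.59 CPM in WT and 60.95 ± 3.08 CPM in KO libraries (SD, n = 3 each; CPM are read counts scaled to a common library size with TMM factors). Its log2 change was -0.42 ± 0.10 (SE; edgeR's quasi-likelihood test, Benjamini-Hochberg adjusted p = 0.0174). The call was lost without KO_340 (adjusted p = 0.0557) or KO_345 (0.0541), and reads outside the floxed exons also count for the gene. A gene was called where its adjusted p was under 0.05, which held for 35.9% of all tested genes (16.0% higher and 19.9% lower in KO mice). The number of calls depended on single libraries: it was 5659 with all 6, and without 1 of them ranged from 2302 (KO_339 left out) to 7879 (WT_341 left out), with 3270 without WT_344, 3316 without KO_340 and 2966 without KO_345. Counts of Xist and Y-linked genes differed between libraries as they do between sexes, with 1 male among the WT and 2 males among the KO mice.

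Hoxa9 was the most abundant member in both genotypes, and Hoxa5, Hoxa6 and Hoxa10 rose to about double their WT level in KO libraries while Hoxa9 showed no called change. Of the 8 tested members, 3 were called higher and 0 lower in KO libraries, against 35.9% of all tested genes called in either direction, 16.0% higher and 19.9% lower. Among tested genes in the members' range of mean level, 0.251 to 19.6 CPM, 21.7% were called higher and 9.12% lower. At an unadjusted p under 0.05 the members counted 4 higher and 0 lower, with DESeq2 3 and 0 and with limma-voom 4 and 0. Over all genes these 3 counts were 3581 higher and 4014 lower, 3068 and 3613, and 4009 and 4385. The same counts of all genes stand beside those of the lists below. The median log2 change of the 8 was 0.52, against 0.01 over all tested genes and 0.25 in that range of level. The libraries of the genotypes did not overlap for 5 of the 8, and for 53.9% of all tested genes.

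**Figure D1:**
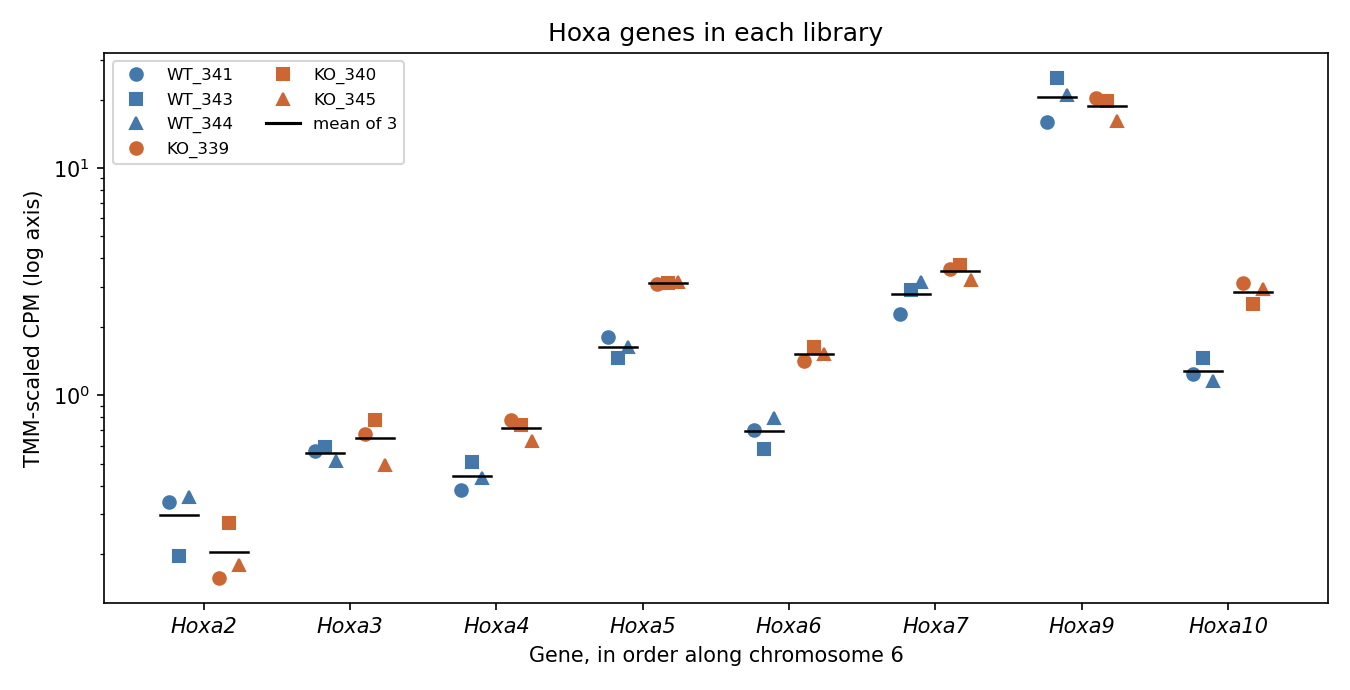
TMM-scaled CPM (log axis) of the 8 tested Hoxa genes in each library, in order along chromosome 6; symbols are single libraries and black lines the mean of 3. Hoxa5, Hoxa6 and Hoxa10 stand apart between the genotypes, and the Hoxa9 libraries overlap.

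Levels of different genes were compared per length, as CPM per kb of the exons of transcripts linked to RefSeq. For Hoxa2, Hoxa3, Hoxa4 and Hoxa7 these lengths include stretches that overlap exons of other annotated genes. How reads in such stretches were counted is not given, so the levels of these genes may be understated. In WT libraries Hoxa9 led with 6.37 ± 1.40 CPM per kb (SD, n = 3, as for the values that follow), and Hoxa7 came next with 1.38 ± 0.226. Hoxa5 (0.869 ± 0.0925) and Hoxa6 (0.793 ± 0.120) overlapped each other. Below them were Hoxa10 (0.409 ± 0.0491), Hoxa4 (0.276 ± 0.0394), Hoxa3 (0.216 ± 0.0155) and Hoxa2 (0.168 ± 0.050), of which only Hoxa3 and Hoxa2 overlapped. In KO libraries Hoxa9 again led (5.79 ± 0.701), but Hoxa7 (1.75 ± 0.134), Hoxa6 (1.75 ± 0.126) and Hoxa5 (1.66 ± 0.0128) now overlapped. The order of the genes therefore did not follow their order on the chromosome: the centre of the cluster was high, and both ends were low.

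Hoxa10, whose overexpression disturbs myeloid and megakaryocyte differentiation, had 1.24, 1.46 and 1.16 CPM in WT_341, WT_343 and WT_344 and 3.12, 2.53 and 2.92 CPM in KO_339, KO_340 and KO_345. All 3 KO libraries lay above all WT libraries, with raw counts of 333 to 455 against 153 to 230. The log2 change was 1.15 ± 0.19 (SE, 95% interval 0.71 to 1.60; edgeR's quasi-likelihood test, adjusted p = 0.00635), a fold of 2.22.

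Hoxa6, a less studied member, had 0.706, 0.582 and 0.791 CPM in the WT libraries, in the same order of mice, and 1.42, 1.64 and 1.52 CPM in the KO libraries. The lowest KO library was well above the highest WT library. The log2 change was 1.14 ± 0.22 (SE, 95% interval 0.62 to 1.65; edgeR, adjusted p = 0.00986), a fold of 2.20. Hoxa5, a regulator of lung and axial skeleton development that also acts in myeloid progenitors, had 1.81, 1.46 and 1.62 CPM in WT and 3.09, 3.12 and 3.14 CPM in KO libraries. Its KO libraries were nearly equal. The log2 change was 0.93 ± 0.17 (SE, 95% interval 0.54 to 1.33; edgeR, adjusted p = 0.00834), a fold of 1.91. These 3 calls held under all 14 alternatives, single libraries left out included, with adjusted p-values of at most 0.0354 for Hoxa10, 0.0418 for Hoxa6 and 0.0432 for Hoxa5.

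Hoxa9 had 15.9, 24.9 and 20.9 CPM in the WT and 20.2, 19.7 and 16.1 CPM in the KO libraries. The genotypes overlapped, and both the lowest and the highest value were from WT mice. Its log2 change was -0.14 ± 0.18 (SE, adjusted p = 0.552, edgeR). The 95% interval of -0.55 to 0.27 leaves out a rise of the size fitted for Hoxa5, Hoxa6 or Hoxa10. Hoxa7, which is activated together with Hoxa9 in a class of mouse myeloid leukaemias, had 2.27, 2.91 and 3.15 CPM in WT and 3.59, 3.76 and 3.23 CPM in KO libraries. The groups did not overlap, but the gap was narrow, and the log2 change of 0.34 ± 0.18 did not pass (95% interval -0.09 to 0.77, adjusted p = 0.175, edgeR).

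Hoxa4, next to Hoxa5 in the cluster, had 0.381, 0.506 and 0.433 CPM in WT and 0.775, 0.743 and 0.629 CPM in KO libraries, again without overlap. Its log2 change of 0.70 ± 0.26 had a 95% interval of 0.10 to 1.30 and an adjusted p of 0.0685 in edgeR's test. It was called with upper-quartile scaling (0.84, adjusted p = 0.0401), with library totals only (0.80, 0.0457) and with limma-voom (0.74, 0.0208), but not under the other alternatives.

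The members at the lower end of the cluster, known for patterning the hindbrain and the pharyngeal arches, did not pass. Hoxa3 had 0.568, 0.595 and 0.516 CPM in WT and 0.679, 0.781 and 0.494 CPM in KO libraries, a log2 change of 0.22 (95% interval -0.42 to 0.85). Hoxa2 had 0.341, 0.196 and 0.358 CPM in WT and 0.158, 0.273 and 0.180 CPM in KO libraries, a log2 change of -0.55 (95% interval -1.47 to 0.37). Both overlapped between the genotypes and rest on at most 103 counts per library, so their intervals are wide. Hoxa11, a gene of limb, kidney and uterus development, had 1, 0 and 6 counts in WT and 0, 2 and 1 counts in KO libraries. This is at the edge of detection, where a count of 0 in WT_343 allows up to 3 counts or 0.0190 CPM and in KO_339 up to 0.0206 CPM (counting error only), and no fold is given.

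Because a ratio of genes within a library does not depend on scaling, each tested member was also set against Hoxa9 (0.5 added to each count). The log2 ratio of Hoxa10 to Hoxa9 was -3.67, -4.09 and -4.17 in WT and -2.70, -2.96 and -2.46 in KO libraries. That of Hoxa6 was -4.49, -5.41 and -4.72 in WT and -3.83, -3.58 and -3.40 in KO libraries, and that of Hoxa5 -3.13, -4.09 and -3.68 against -2.71, -2.66 and -2.35. In all of these the KO libraries were higher, so these genes gained on Hoxa9 by 1.28, 1.27 and 1.06 log2 units. Hoxa4 (0.82) and Hoxa7 (0.48) also gained without overlap, whereas Hoxa3 (0.32) and Hoxa2 (-0.41) overlapped. The exact two-sided permutation test gave p = 0.10 for the 5 genes without overlap, the smallest that 3 against 3 libraries allow, and adjusted values of 0.14 over the 7 ratios. Hoxa9 made up 72.3 ± 3.96% of the members' counts in WT and 59.6 ± 2.25% in KO libraries (SD, n = 3 each).

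**Figure D2:**
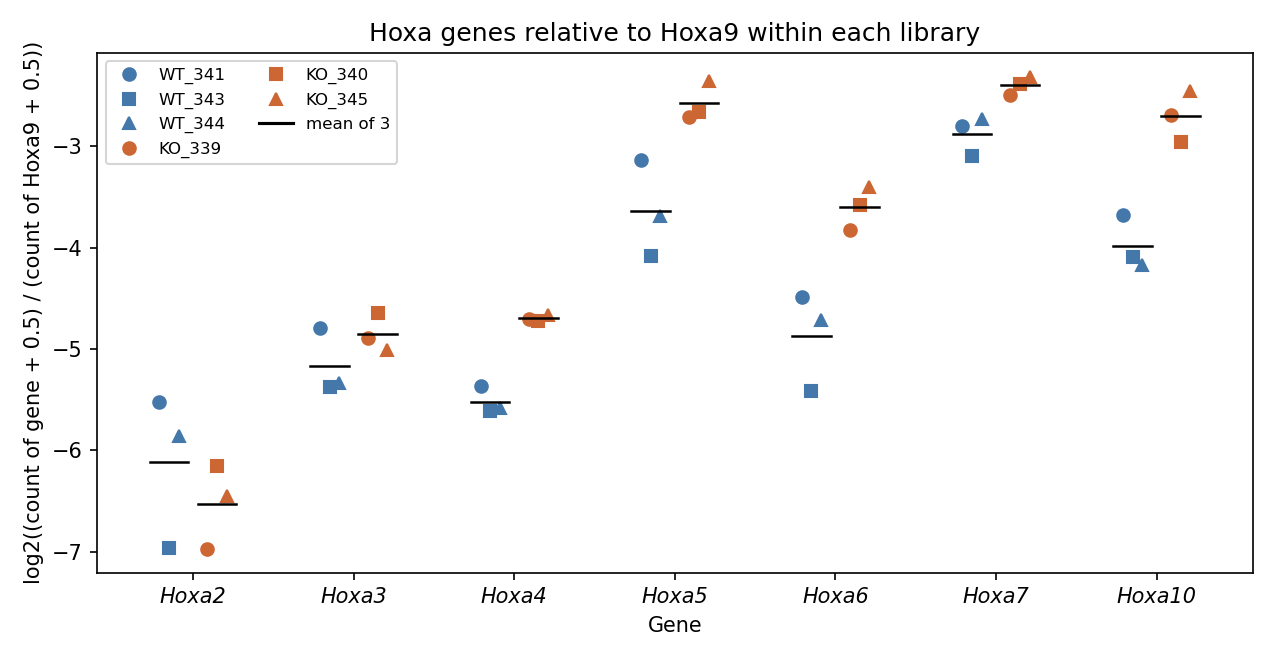
Log2 ratio of each tested member's count to that of Hoxa9 in the same library, with 0.5 added to both counts; symbols are single libraries and black lines the mean of 3. For Hoxa4, Hoxa5, Hoxa6, Hoxa7 and Hoxa10 the KO libraries all lie above the WT libraries.

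Other rows of the locus were read beside the members. Mir196b, the hairpin of a microRNA family that sits in Hox clusters and targets Hox messenger RNAs, lies at 52230081 to 52230165 between the RefSeq starts of Hoxa9 and Hoxa10. Its 2 mature forms are shown, from RefSeq (GRCm38.p6) and 5′ to 3′, with the seed in capitals (bases 2 to 8, which pair with targets), because its counts, like those of Hoxa10 and unlike those of Hoxa9, were higher in every KO library.
miR-196b-5p: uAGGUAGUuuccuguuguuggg
miR-196b-3p: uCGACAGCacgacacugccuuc

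The Mir196b row had 7, 11 and 4 counts in WT and 20, 25 and 13 counts in KO libraries. The groups did not overlap, and the log2 change was 1.44 ± 0.50 (SE, 95% interval 0.27 to 2.62), which did not pass (adjusted p = 0.0590, edgeR). It was called with upper-quartile scaling (1.58, adjusted p = 0.0472) and limma-voom (1.97, 0.00779). These counts are reads of long RNA over the 85 bp hairpin, which is exonic in 2 of 5 annotated Hoxa9 transcripts, neither linked to RefSeq, and not a measure of mature microRNA.

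Hoxaas3, an antisense RNA gene at 52175217 to 52215076 on the forward strand, is listed as 2700086A05Rik. It had 0.422, 0.487 and 0.564 CPM in WT and 0.953, 1.30 and 0.719 CPM in KO libraries, without overlap. Its log2 change was 1.01 ± 0.30 (SE, edgeR, adjusted p = 0.0352), and the call was lost with sex as a covariate (0.0679) and without any single library but WT_341 and KO_345 (0.0704 to 0.105). Its exons cover 28.8% of the RefSeq-linked exons of Hoxa7 and 2.93% of those of Hoxa3 on the opposite strand. Of its own RefSeq-linked exons, 34.8% overlap exons of Hoxa3 and 35.2% those of the gene model Gm28308, also on the opposite strand. Whether reads were counted by strand is not stated in the sources used. In the annotation the RefSeq-linked exons of Hoxa5, Hoxa6, Hoxa9 and Hoxa10 overlap no exon of another gene.

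Mira, a noncoding RNA gene at the lower end of Hoxa7 whose 798 bp all fall within annotated Hoxa7 exons, did not pass (2.92 ± 0.252 CPM in WT, 2.85 ± 0.231 CPM in KO, SD, n = 3 each; log2 change -0.03, 95% interval -0.42 to 0.35, of either sign between scalings). Beyond the upper end of the cluster, Hoxa13 had 1 count, Hottip 2, and Evx1 0 in all 6 libraries together. The called rows of the locus were Hoxaas3, Hoxa5, Hoxa6 and Hoxa10, and Hoxa7 and Hoxa9, between Hoxa6 and Hoxa10, were not called.

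**Figure D3:**
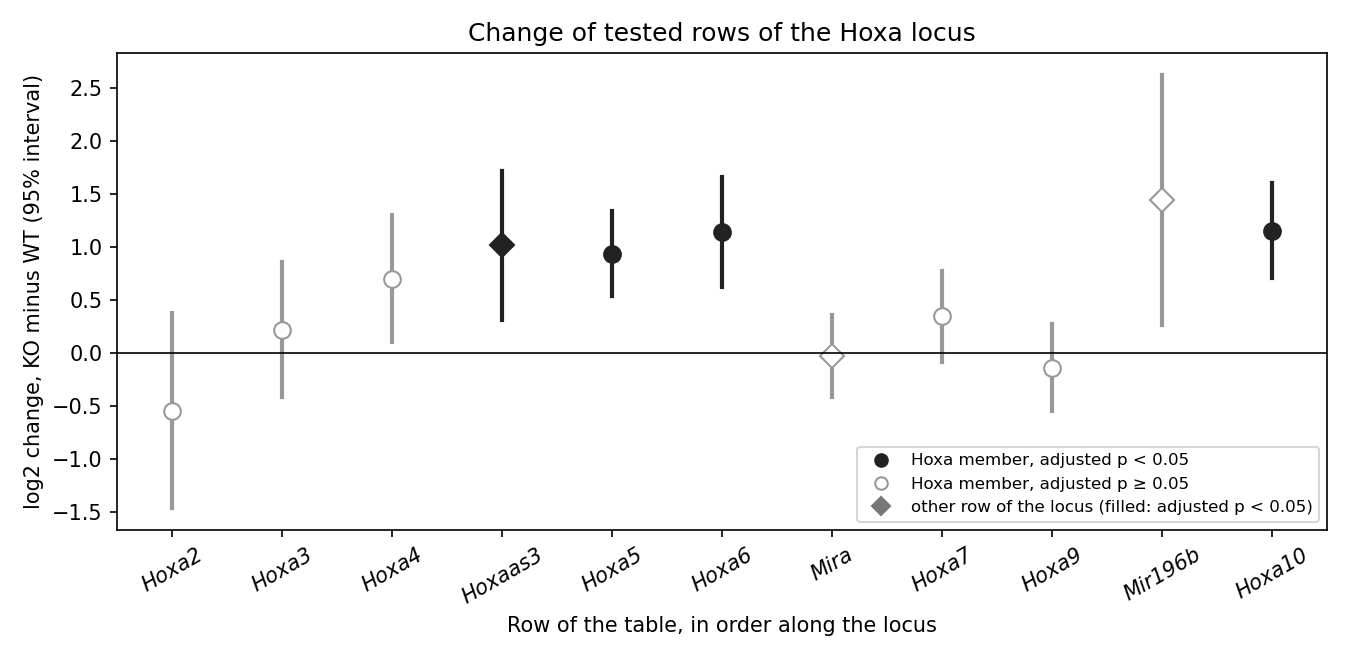
Log2 change (KO minus WT) with its 95% interval for tested rows of the Hoxa locus, in order along the locus; circles are the Hoxa members, diamonds other rows, and filled symbols passed an adjusted p of 0.05. Hoxa5, Hoxa6, Hoxa10 and Hoxaas3 are filled, and Hoxa9 lies near 0.

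Cofactors of the TALE class were compared next. Meis1, the partner of Hoxa9, had 25.2, 22.2 and 22.5 CPM in WT and 36.2, 35.8 and 41.6 CPM in KO libraries, a log2 change of 0.70 ± 0.10 (SE; edgeR, adjusted p = 0.0046) that was called under all 14 alternatives. Pbx3, another cofactor of HOX proteins (log2 change 0.46, adjusted p = 0.0523, edgeR), did not pass.

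Hox genes of the other clusters gave 4 tested genes of 28 in the table, of which 0 rose and 0 fell (0 and 0 at an unadjusted p under 0.05, 1 and 0 with DESeq2, 0 and 0 with limma-voom). The count was also 1 with no filter on low counts, and without any 1 WT library or KO_345. All 4 log2 changes were positive. Their median was 0.56, against 0.52 for the 8 tested Hoxa members and 0.01 over all tested genes. Hoxb4, which expands stem cells when overexpressed, had 6.33 to 8.19 CPM in WT and 7.59 to 8.33 CPM in KO libraries, and Hoxb3 2.49 to 2.63 and 2.17 to 3.15 CPM. Both overlapped between the genotypes, with 95% intervals of -0.15 to 0.50 and -0.42 to 0.48 on the log2 scale. Hoxb2 (log2 change 0.95) and Hoxb5 (0.98) had wide intervals (-0.15 to 2.05 and -0.34 to 2.29) at 0.427 CPM or less. Hoxc5, which did not pass the filter and was picked out after its values were seen, had 0, 1 and 0 counts in WT and 20, 10 and 8 counts in KO libraries. The Cdx genes, which activate Hox genes in the embryo, had 0 counts in 5 of the 6 libraries, which allows up to 3 counts in each, and Cdx4 had 5 counts in KO_345.

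Among 12 genes whose products keep Hoxa genes active on chromatin, 4 fell and 0 rose (5 and 0 at an unadjusted p under 0.05, 4 and 0 with DESeq2, 5 and 0 with limma-voom), with a median log2 change of -0.13. Of all tested genes 19.9% fell. This share depended on level, with 9.12% among genes of 0.251 to 19.6 CPM. It was not computed at the higher level of most of these 12 genes. Ash2l, a core subunit of MLL-type histone methyltransferases, fell from 96.5 ± 10.3 to 57.6 ± 0.651 CPM (SD, n = 3 each; log2 change -0.74, edgeR, adjusted p = 0.00327), and Wdr5, another core subunit, fell from 162 ± 15.3 to 122 ± 1.35 CPM (-0.41, adjusted p = 0.0112). Both were called under all 14 alternatives. The falls of Psip1 (-0.35), which tethers MLL to chromatin, and of the acetyltransferase gene Kat7 (-0.27) were lost with upper-quartile scaling or library totals only, and without any 1 of the KO libraries, so that 2 of the 12 were then called; Kat7 was also lost without WT_344, and Psip1 with sex as a covariate (adjusted p = 0.0571, edgeR) and when only genes with 1 CPM or more in 3 libraries were kept (0.0555). Kmt2a, which encodes MLL itself, had 237 to 300 CPM in WT and 239 to 281 CPM in KO libraries (log2 change -0.07, 95% interval -0.32 to 0.19), and Men1 (-0.04) and Dot1l (-0.24) did not pass.

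Genes bound or regulated by HOXA9 and MEIS1 in progenitors went both ways, with 5 higher and 2 lower of 11, against 16.0% higher and 19.9% lower among all tested genes. In all 7 were called, against 2 without KO_339 or KO_340 and 4 without WT_343 or WT_344. Id2, an inhibitor of helix-loop-helix factors, rose from 47.1 ± 8.57 to 85.2 ± 2.47 CPM (log2 change 0.85, edgeR, adjusted p = 0.00494), and Cdk6, a G1 kinase, fell from 342 ± 28.3 to 238 ± 22.2 CPM (-0.52, adjusted p = 0.00961); both were called under all 14 alternatives. Sox4 (0.48), Erg (0.46), Cd34 (0.38) and Igf1r (0.33) rose, and the kinase gene Pim1 (-0.68) fell, each with a call that was lost without KO_339 or KO_340. Sox4 was also lost without WT_343, Pim1 without WT_344, Igf1r without KO_345, Cd34 without WT_343 or WT_344 or with sex as a covariate (adjusted p = 0.0573, edgeR) and Erg without WT_343, WT_344 or KO_345. Flt3, the progenitor kinase receptor, had 39.97 to 56.4 CPM in WT and 33.3 to 55.5 CPM in KO libraries, and did not pass (95% interval -0.59 to 0.40 on the log2 scale).

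Of 8 tested protein-coding neighbours of the cluster 2 fell, Tax1bp1 (log2 change -0.34) and Cbx3 (-0.37), and 0 rose (3 and 0 at an unadjusted p under 0.05, 2 and 0 with DESeq2, 3 and 1 with limma-voom), against 19.9% of all tested genes called lower and 16.0% higher. Both calls were lost with upper-quartile scaling and without WT_344 or any 1 KO library, and 4 genes were called without WT_341. Here too, no share of all genes was computed at the level of these neighbours. Skap2, beyond the lower end of the cluster, had 151 to 163 CPM in WT and 133 to 146 CPM in KO libraries (log2 change -0.17, adjusted p = 0.0985, edgeR), and Hibadh, beyond Evx1, 57.7 to 66.7 and 55.03 to 57.8 CPM (-0.17, adjusted p = 0.138, edgeR).

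**Figure D4:**
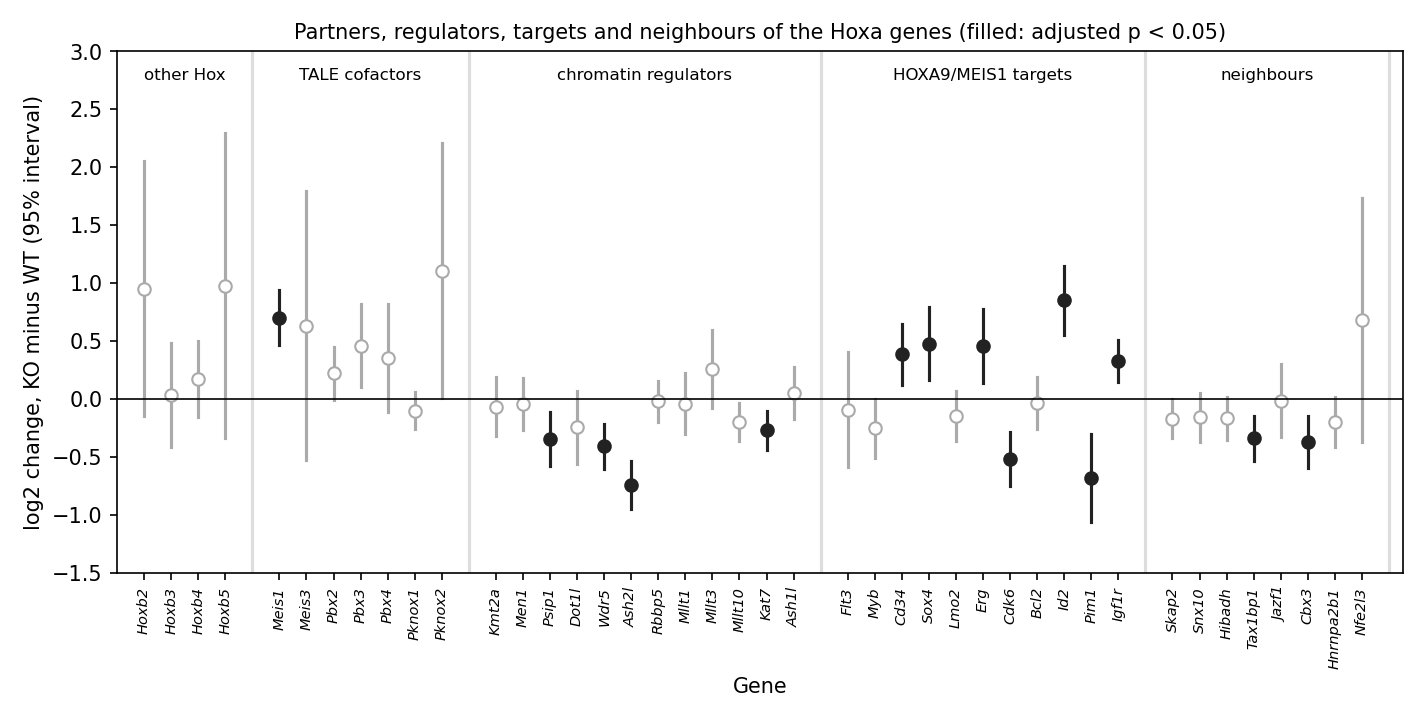
Log2 change (KO minus WT) with its 95% interval for genes among the tested Hox genes of other clusters, TALE cofactors, chromatin regulators, genes tied to HOXA9 and MEIS1, and neighbours of the cluster; filled symbols passed an adjusted p of 0.05. Meis1 and Id2 lie highest among the filled symbols and Ash2l and Pim1 lowest.

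Some markers of stem cells and of other cell types differed between the genotypes in these bulk samples, in which more cells of a type and more RNA per cell cannot be told apart. The counts of calls below stand beside 16.0% of all tested genes called higher and 19.9% called lower. At an unadjusted p under 0.05, 3581 of the 15742 tested genes were higher and 4014 lower. With DESeq2 3068 and 3613 genes were called, and with limma-voom 4009 and 4385. Of 12 stem cell markers 9 were higher in KO libraries and 0 lower (9 and 1 at an unadjusted p under 0.05, 9 and 1 with DESeq2, 7 and 0 with limma-voom). Fgd5, Procr, Mecom and Hlf were among the 9. Ly6a went the other way without overlap, from 87.9 ± 10.1 to 55.5 ± 18.6 CPM (SD, n = 3 each). It did not pass (log2 change -0.66, adjusted p = 0.0607, edgeR). The summed level of the 12, made up mostly of Cd34 and Ly6a, was 229 to 251 CPM in WT and 235 to 304 CPM in KO libraries. Among the KO libraries this sum was lowest in KO_340, where Hoxa10 was also lowest and Hoxa6 highest. Of 8 stromal markers, a cell type in which Hoxa genes can also be active, 3 were higher and their sum was 27.1 to 35.7 CPM in WT and 49.0 to 123 CPM in KO libraries, again lowest in KO_340. Megakaryocyte markers were higher in 3 of 6 cases (31.8 to 48.8 CPM against 83.3 to 115 CPM) and neutrophil markers in 3 of 10 (11110 to 35383 CPM against 42601 to 56008 CPM). At an unadjusted p under 0.05, 5 of the 6 megakaryocyte, 7 of the 10 neutrophil and 4 of the 8 stromal markers were higher, and with limma-voom 3, 10 and 2. The other lists gave 1 lower of 8 erythroid markers (348 to 451 against 302 to 344.8 CPM), 2 higher and 1 lower of 7 T and NK cell markers (268 to 302 against 210 to 228 CPM, a sum made up mostly of Nkg7, the lower one, while the median log2 change of the 7 was 1.16), 1 higher of 7 macrophage markers (312 to 500 against 437 to 638 CPM), 1 higher of 4 endothelial markers (70.8 to 75.3 against 70.2 to 81.9 CPM) and 0 of 7 B lymphoid markers (0 at an unadjusted p under 0.05, 0 with DESeq2, 5 higher with limma-voom; 6.82 to 101 against 50.8 to 79.9 CPM). The erythroid sum was made up mostly of Tfrc, the lower one (323 CPM in WT, 216 CPM in KO), while the median log2 change of the 8 was -0.06. The macrophage sum was mostly Vcam1, the higher one (259 and 398 CPM), while the median of the 7 was 0.06. Most of the endothelial sum was Pecam1, which was not called (66.3 and 65.8 CPM). In lists this short a count of 1 is near the shares over all tested genes. No marker was at 0 in any library, and the part of these cell types in the Hoxa values was not tested.

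The members' summed level, which Hoxa9 dominates, was 23.2, 32.6 and 28.99 CPM in WT and 33.1, 32.6 and 28.2 CPM in KO libraries, and without Hoxa9 7.32, 7.71 and 8.07 CPM against 12.8, 12.9 and 12.1 CPM. Over the 6 libraries the genes whose level ran most closely with the full sum, of 11756 compared, were Ptges2 (Pearson r = 0.991), Tmem65 (0.983), Mapkap1 (0.976), Rpl30 (0.974) and Ankrd10 (0.972). This is a description of 6 libraries that share depth and scaling, and none of the 5 genes was called between the genotypes.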

How the data were processed

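The deposited table holds raw read counts per gene symbol for 6 libraries, 1 mouse each. Per the submitters' processing notes, which give no versions or order, the tools were HTSeq, STAR, Trimmomatic and FastQC and the build was mm10; per the labels' protocols, libraries were strand-specific messenger RNA, read as pairs of 75 bp. Gene models, strandedness of counting, and treatment of reads with several matches are not given in the sources used.

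Groups came from sample titles. The test was the robust quasi-likelihood fit of edgeR 4.0.16 under R 4.3.3 (genes kept by filterByExpr at a minimum count of 10 and total of 15, TMM, Benjamini-Hochberg adjustment over 15742 genes, threshold 0.05). Intervals are 95% and SEs are the log2 change over the root of F. DESeq2 1.42.0, limma 3.58.1 and 12 further alternatives were tried. Library pairs had chi-square statistics of 51.3 to 985 per degree of freedom, so none was a duplicate. The p-values of edgeR set the difference between the genotypes against the spread between these mice, which the fit moderates across genes. In a run on simulated counts for this comparison (15592 genes), the test found 39 of 48 genes given a 4-fold difference. At 2-fold it found 30 of 48, at 1.5-fold 8 of 49 and at 1.25-fold 0 of 50. False calls made up 5 of the 82 in that run, whereas the real counts gave 5659 calls. With so few calls the adjustment is stricter, so these rates do not give the power of the test reported here.

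The members and lists were chosen with earlier results of these data known. Named are all members, Ints11, the rows of the locus, the genes of each list that passed (the 4 with the smallest adjusted p where over 8 did) and the 5 genes of most like pattern. Other genes that describe a list were picked with their values in view. The stem cell list shares Cd34 with the HOXA9 and MEIS1 list and Mllt3 with the chromatin list. Exon lengths and overlaps are from GENCODE M21. Some rows are not reported here.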

Additional observations from a re-analysis of the deposited data

How the results depend on the processing

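Over 14 alternatives, the count of Hoxa members called higher was 3 or 4 and of members called lower 0; it stayed at 3 without any single library. The number of all genes called ranged from 2302 to 7879 when single libraries were left out, and the cause was not tested beyond the fewer samples. Upper-quartile scaling moved the median log2 change of all genes to 0.15 and library totals only to 0.11, with 3458 higher and 1931 lower calls and 3151 and 2212 calls, against 2520 and 3139. Hoxa9 changed sign with upper-quartile scaling (0.0014), and without single libraries ranged from -0.31 to 0.015. Mira changed sign with upper-quartile scaling (0.11), library totals only (0.071) and when only genes with 1 CPM or more in 3 libraries were kept (0.043), and ranged from -0.11 to 0.041 without single libraries. Neither gene was called under any alternative. With a pseudocount of 2 the ratios to Hoxa9 kept their direction. No paired analysis was possible because the genotypes share no replicate numbers. Hoxa2, Hoxa3, Hoxa11 and Mir196b are limited by their low counts.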
